A study of Homo sapiens with 22 samples.

Results

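Ribosome footprints of LN308 cells were compared between 6 h of thapsigargin and no treatment. The 4 libraries of this comparison, 1 of thapsigargin and 3 untreated, were chosen by their labels from 22 libraries. LN308 is an established glial line derived from an astrocytoma and lacks p53, per the labels, so treated and untreated cells shared that deficiency. Treated cells had 200 nM thapsigargin in the medium for 6 h, and untreated cells are labelled 0 h. The protocol names a DMSO control, but no vehicle library of 6 h was used here. Before lysis the cells received 0.1 mg/ml cycloheximide for 5 min, and fragments of 27 to 33 nt were taken from monosomes. The RNA-Seq libraries of the same treatments, the 3 footprint libraries of tunicamycin at 6 h (2.5 µg/ml) and the footprint library of thapsigargin at 2 h were used for comparison. Of 58278 gene entries 19258 were protein-coding, and 13430 of these had enough counts to be tested.

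Thapsigargin blocks SERCA, the pump that fills the endoplasmic reticulum (ER) with calcium. Chaperones of the ER need that calcium, and unfolded proteins then activate 3 sensors that together make up the unfolded protein response (UPR). PERK phosphorylates the initiation factor eIF2α, which lowers general translation while it favours mRNAs such as ATF4. IRE1 splices XBP1 mRNA, and ATF6 is cut in the Golgi to release a transcription factor. ATF6 and XBP1 raise ER chaperones and degradation factors, and ATF4 with its target CHOP (DDIT3) raises amino acid metabolism and stress regulators. Footprints count ribosomes on mRNAs, so they hold both the mRNA level and its translation, and they are relative to all other mRNAs in the library.

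The thapsigargin library held 6.38 M counts, against 29.2, 8.48 and 9.77 M in untreated replicates 1, 2 and 3. Levels are CPM, counts scaled to a common library size, after trimmed mean of M-values (TMM) scaling, and 1 count in the thapsigargin library equals 0.15 CPM. Because that library had no replicate, its test borrowed the spread of the groups with 3 libraries and assumed that it varied like them. Untreated replicate 1 stood apart: it lay at 97.9 on the second principal component (22.6% of variance), against -56.9 for thapsigargin and 11.3 and 10.2 for the other two untreated libraries. On the first component (23.7%) the thapsigargin library lay at -20.3, on the side of untreated replicate 1 at -43.7 and of the replicate 1 libraries of tunicamycin at -51.4 and -60.5, while untreated replicates 2 and 3 lay at 32.7 and 32.2. The labels name no batch. Whether replicates were separate cultures is not stated, and p-values cover the variation among these libraries alone, which could be technical.

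The 14 highest called genes with at least 50 counts were DDIT3, TRIB3, SESN2 and DDIT4, which act in or below the ATF4 and CHOP arm, HERPUD1 and DERL3 of ER-associated degradation, and FICD, NFIL3, AKNA, NR4A2, BEX2, CDK2AP2, SYBU and PLEKHF1. A gene was called when the adjusted p of edgeR's quasi-likelihood test over all genes was under 0.05. Among protein-coding genes 116 were called higher (0.864% of 13430) and 33 lower (0.246%). In the thapsigargin library each of the 116 lay above all 3 untreated libraries and each of the 33 below all 3. Of all protein-coding genes tested 28.3% lay above all 3 and 34.4% below, and the called genes were chosen by these same levels. The median log2 fold change over all protein-coding genes tested was -0.17, with quartiles of -0.87 and 0.40. Without untreated replicate 2 or 3 the calls fell to 51 and 54, and without replicate 1 there were 246. Fitted on these 4 libraries alone the test called 0 genes, while 2109 protein-coding genes of the full fit had an unadjusted p under 0.05. The direction of all 149 called genes was the same without each untreated replicate and against replicate 1 alone, and 38 of them (32 higher and 6 lower) stayed called without each of the 3 in turn. Those 38 include HERPUD1, DDIT3, TRIB3, HSPA5, SDF2L1, DNAJB11, FICD, SEC23B, SEC24D, GFPT1, GDF15, GOT1, ALDH1L2, WIPI1, CDC6, NFIL3, AKNA, CDK2AP2, PLEKHF1, NANS, PREB, SERP1, NR4A2, DGAT2, RGS4, PCDHB14 and MANEA. Every other called gene named here lost its call without untreated replicate 2, replicate 3 or both, with an adjusted p of at most 0.14 (EIF2AK3), and HYOU1 also without replicate 1 (adjusted p = 0.0504).

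A rule of size, with no test, took genes with a log2 fold change of at least 1 in either direction, a thapsigargin level outside the untreated range, and at least 50 counts in the thapsigargin library or on average in the untreated libraries. It took 874 protein-coding genes as higher (6.51%) and 1682 as lower (12.5%). The count minimum was met at a lower level by genes high in the deeper untreated libraries than by genes high in the thapsigargin library, so the 2 counts cannot be compared with each other.

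Sequences upstream of some of the called genes are shown because they carry the ER stress response element (ERSE), a pair of boxes known to bind NF-Y and ATF6 or XBP1. Capitals mark the element. The first 2 stretches hold ERSE (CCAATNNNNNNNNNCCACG) and the others ERSE-II (ATTGG, any base, CCACG), which uses the same CCACG box beside the reverse complement of CCAAT. In SDF2L1 and HYOU1 the element is inverted, so the capitals show its reverse complement. HYOU1 holds another inverted ERSE-II, farther upstream, that is not shown. Each is written 5′ to 3′ on the strand of its gene, from RefSeq on GRCh38.p14.
HSPA5: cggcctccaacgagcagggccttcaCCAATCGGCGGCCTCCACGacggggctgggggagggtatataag
XBP1: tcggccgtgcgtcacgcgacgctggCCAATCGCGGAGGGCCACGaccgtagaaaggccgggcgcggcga
HERPUD1: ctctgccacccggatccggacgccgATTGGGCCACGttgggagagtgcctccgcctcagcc
SDF2L1: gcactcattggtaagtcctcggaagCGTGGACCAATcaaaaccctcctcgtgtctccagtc
HYOU1: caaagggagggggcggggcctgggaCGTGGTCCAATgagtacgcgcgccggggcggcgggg

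The stretches lie at chr9:125241366-125241434 for HSPA5, chr22:28800578-28800646 for XBP1, chr16:56932000-56932060 for HERPUD1, chr22:21642089-21642149 for SDF2L1 and chr11:119057249-119057309 for HYOU1, all upstream of the annotated start. In HSPA5 the element spanned bases 66 to 48 before the start, and in XBP1 bases 52 to 34. Both elements were searched on both strands in the 250 bases before each annotated start of 10933 tested protein-coding genes that had an entry. ERSE was found in 16 of these genes (0.146%), among them 4 of the 99 called higher (FICD, HSPA5, SERP1 and XBP1) and 0 of the 28 called lower. ERSE-II was found in 14 (0.128%), among them 5 of the 99 (HERPUD1, HYOU1, RAD9A, SDF2L1 and SHCBP1) and 0 of the 28. A match describes the letters only, and binding was not measured.

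The target of the drug was not called. ATP2A2, which encodes the SERCA isoform of most tissues, had 685 CPM in thapsigargin, against 514, 402 and 490 CPM in untreated cells. Its thapsigargin level lay above all 3 untreated levels, but the log2 fold change of 0.55 ± 0.43 (SE) was not called (adjusted p = 0.57). ATP2A1 had 1 count in thapsigargin and ATP2A3 had 10. None of the 24 genes of SERCA and ER calcium handling was called in either direction, and their median was 0.04. By size 1 of the 24 was higher (4.17%) and 2 lower (8.33%), against 6.51% and 12.5% of all protein-coding genes tested. The higher gene was NUCB2, a calcium-binding protein of the Golgi and ER. It had 90.4 CPM in thapsigargin, against 41.8, 22.9 and 35.1 CPM in untreated cells (adjusted p = 0.0735).

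**Figure D1:**
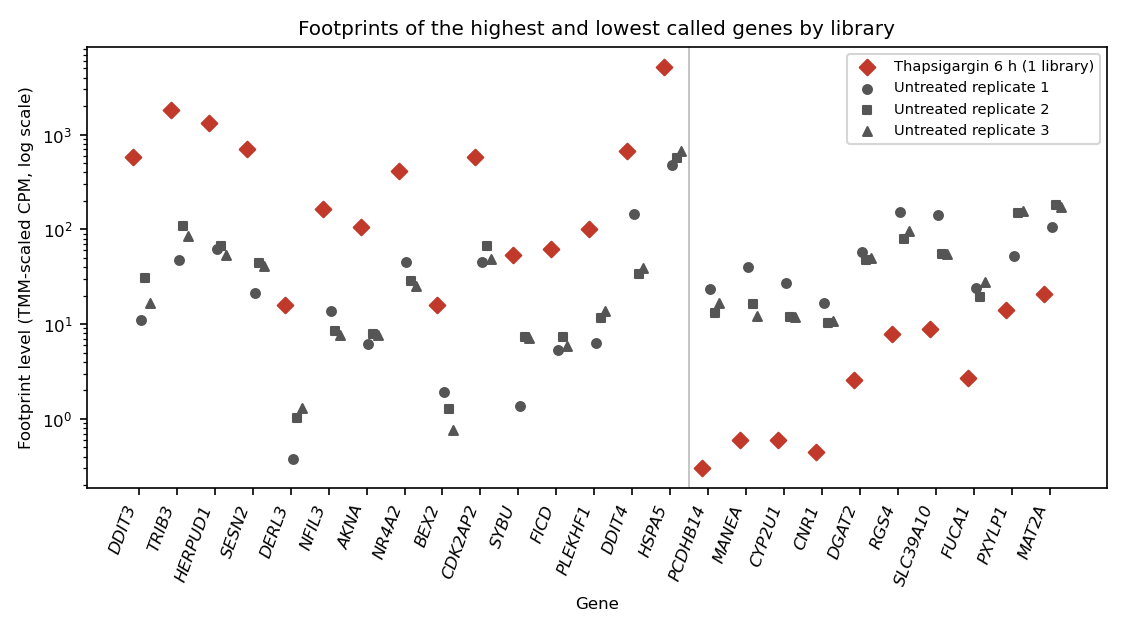
Footprint levels (TMM-scaled CPM, log scale) of the 14 highest called genes and HSPA5, left of the line, and of the 10 lowest, right of it. Red diamonds are the thapsigargin library and grey symbols the 3 untreated replicates. Each red diamond lies outside the range of the grey symbols of its gene, and HSPA5 has the highest level of the genes shown, at 5162 CPM.

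Among UPR sensors and transcription factors 3 of 15 tested genes were called higher (20%) and 0 lower, with a median log2 fold change of 1.38. Of all protein-coding genes tested 0.864% were called higher and 0.246% lower, the shares to set beside the calls of each list. DDIT3, which encodes CHOP, had 574 CPM in thapsigargin, against 11.2, 30.4 and 16.5 CPM in untreated cells. This was the highest of all called fold changes among genes with at least 50 counts, at 4.90 ± 0.60 (adjusted p = 0.00311). XBP1, the substrate of IRE1, had 636 CPM in thapsigargin, against 131, 141 and 123 CPM in untreated cells. Its log2 fold change was 2.27 ± 0.35 (adjusted p = 0.0111), and its spliced and unspliced forms cannot be separated in counts per gene. EIF2AK3, which encodes PERK, had 82.9 CPM in thapsigargin, against 34.7, 22.8 and 25 CPM in untreated cells (1.59 ± 0.34, adjusted p = 0.0484). The other two sensors were not called: ERN1 (IRE1) gave 0.46 ± 0.60 and ATF6 gave -0.02 ± 0.37.

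ATF4, whose mRNA carries upstream reading frames that favour its translation when eIF2α is phosphorylated, had 472 CPM in thapsigargin, against 104, 213 and 166 CPM in untreated cells. The groups did not overlap, but the log2 fold change of 1.55 ± 0.39 missed the threshold (adjusted p = 0.0864). ATF3, a transcription factor downstream of ATF4, had 244 CPM in thapsigargin, against 9.8, 25.6 and 32.4 CPM in untreated cells (3.44 ± 0.89, adjusted p = 0.125). CEBPB, a partner of CHOP, had 859 CPM in thapsigargin, against 210, 167 and 164 CPM in untreated cells (2.25 ± 0.50, adjusted p = 0.0559).

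ER chaperones had the largest share of calls of the lists examined, 6 of 19 higher (31.6%, against 0.864% of all) and 0 lower. Their median was 0.79. HSPA5 (BiP), the Hsp70 of the ER and a regulator of all 3 sensors, had 5162 CPM in thapsigargin, against 475, 563 and 675 CPM in untreated cells. Its log2 fold change was 3.18 ± 0.44 (adjusted p = 0.00617), and it was the most abundant of the called chaperones in the thapsigargin library. DNAJB9, a co-chaperone that recruits BiP to IRE1, had 191 CPM in thapsigargin, against 36.6, 19.4 and 11.8 CPM in untreated cells (3.07 ± 0.48, adjusted p = 0.0129). SDF2L1, part of an ER chaperone complex, had 854 CPM in thapsigargin, against 79.1, 129 and 118 CPM in untreated cells (2.98 ± 0.37, adjusted p = 0.00308). DNAJB11, another BiP co-chaperone, had 546 CPM in thapsigargin, against 87.6, 101 and 105 CPM in untreated cells (2.48 ± 0.32, adjusted p = 0.0039). HYOU1 (2.01) and MANF (1.69) completed the 6. The lectin chaperones and the Hsp90 of the ER moved less and were not called: CALR gave 0.77 ± 0.39, HSP90B1 0.74 ± 0.44 and CANX 0.11 ± 0.42.

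FICD, the enzyme that modifies BiP by AMPylation, had 62.8 CPM in thapsigargin, against 5.38, 7.34 and 5.94 CPM in untreated cells (3.34 ± 0.39, adjusted p = 0.00268). In oxidative folding 1 of 17 genes was called (5.88%, against 0.864% of all). This was PDIA4, a disulfide isomerase, with 2414 CPM in thapsigargin, against 580, 497 and 651 CPM in untreated cells (2.07 ± 0.40, adjusted p = 0.0308). The median of this list was 0.74, and 11 of its 17 genes lay above all 3 untreated libraries, against 28.3% of all protein-coding genes tested.

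ER-associated degradation (ERAD) returns misfolded proteins to the cytosol. Its list had 4 of 26 genes called higher (15.4%, against 0.864% of all) and 0 lower. HERPUD1, which assembles the HRD1 ubiquitin ligase complex, had 1332 CPM in thapsigargin, against 62.7, 66.7 and 53.9 CPM in untreated cells. The untreated levels lay close together, and the log2 fold change of 4.45 ± 0.36 had the smallest adjusted p of the genes named here (0.000422). SYVN1, which encodes HRD1 itself, had 738 CPM in thapsigargin, against 77.9, 107 and 123 CPM in untreated cells (2.84 ± 0.46, adjusted p = 0.014). DERL3, a derlin of the degradation channel, had 15.9 CPM in thapsigargin, against 0.379, 1.03 and 1.3 CPM in untreated cells (4.17 ± 0.70, adjusted p = 0.0164). The fourth was SELENOK (2.03), a selenoprotein of the ER membrane. The list median was 0.36, and OS9 and EDEM3 gave 0.27 and -0.09 and were not called.

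In ER translocation and vesicle traffic 4 of 41 genes were called higher (9.76%, against 0.864% of all) and 0 lower. The list median was 0.55. The 4 called genes encode COPII coat subunits, a Golgi GTPase activator and a subunit of the signal recognition particle. SEC23B, of the COPII coat that buds vesicles from the ER, had 393 CPM in thapsigargin, against 77.6, 65.7 and 77.3 CPM in untreated cells (2.42 ± 0.35, adjusted p = 0.00757). SEC24D, its cargo adaptor, had 369 CPM in thapsigargin, against 46.7, 75.7 and 93.8 CPM in untreated cells (2.36 ± 0.37, adjusted p = 0.0129). ARFGAP3 (2.00) and SRP68 (1.65) were the other two. In N-glycosylation and the hexosamine pathway 1 of 33 genes was called (3.03%, against 0.864% of all). This was GFPT1, the rate-limiting enzyme of hexosamine synthesis, with 393 CPM in thapsigargin, against 81.2, 46.7 and 60.8 CPM in untreated cells (2.64 ± 0.33, adjusted p = 0.00311). PGM3, a later enzyme of that pathway, gave 1.61 ± 0.38 (adjusted p = 0.0714), and the median of the list was 0.03.

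**Figure D2:**
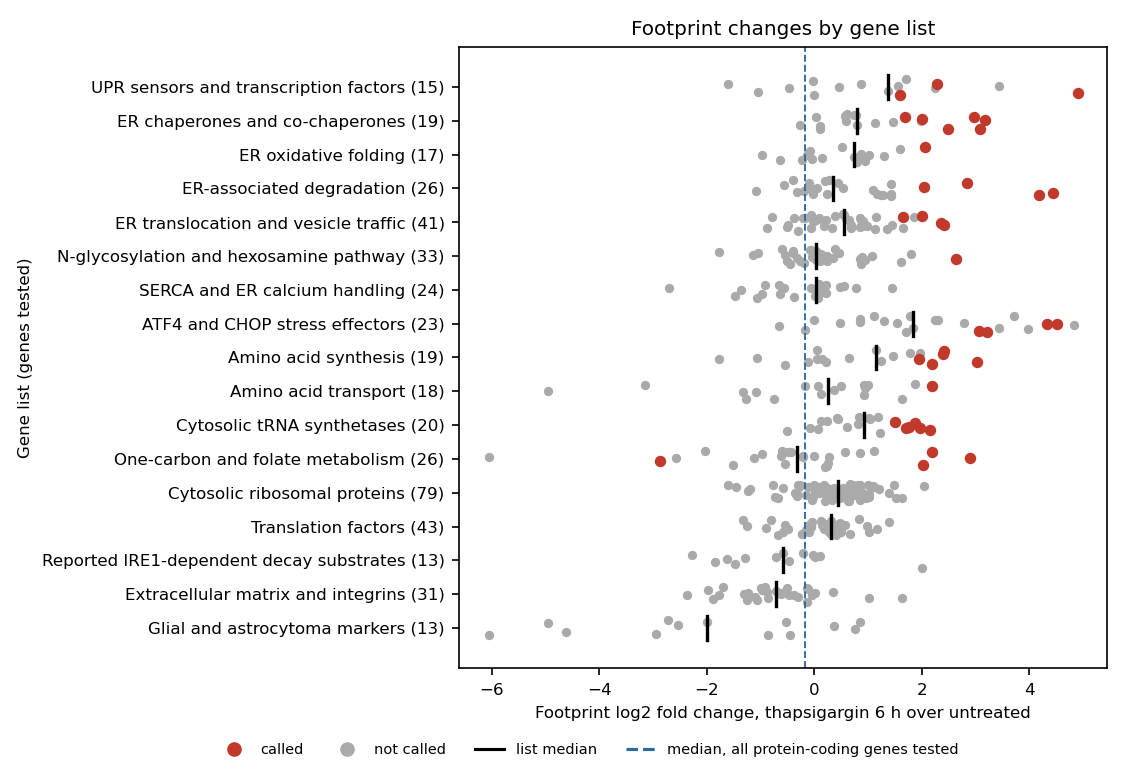
Log2 fold changes of footprints, thapsigargin over untreated, for 17 gene lists, with the number of genes tested in parentheses. Each point is a gene, red where called; the black bar is the list median and the dashed line the median of all protein-coding genes tested, -0.17. Red points sit mostly at the right of the ER and amino acid lists. The glial list has the lowest median, -2.0, and includes genes with levels near 0.

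Stress effectors of ATF4 and CHOP had the highest median of the lists, 1.83. Of 23 genes 4 were called higher (17.4%, against 0.864% of all) and 0 lower. TRIB3, a pseudokinase that feeds back on CHOP, had 1826 CPM in thapsigargin, against 47.3, 107 and 85.2 CPM in untreated cells (4.52 ± 0.51, adjusted p = 0.00245). SESN2, an inhibitor of mTORC1, had 713 CPM in thapsigargin, against 21.4, 43.8 and 41.5 CPM in untreated cells (4.33 ± 0.70, adjusted p = 0.0189). DDIT4, which also restrains mTORC1, had 673 CPM in thapsigargin, against 146, 34 and 38.9 CPM in untreated cells (3.20 ± 0.64, adjusted p = 0.0456). GDF15, a secreted stress cytokine, had 300 CPM in thapsigargin, against 26.8, 41.2 and 39.2 CPM in untreated cells (3.07 ± 0.39, adjusted p = 0.00311). By size 16 of the 23 genes were higher (69.6%) and 0 lower, against 6.51% and 12.5% of all protein-coding genes tested.

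Several genes of this list were far lower in untreated replicate 1 than in the other two untreated libraries, which widened their error. PPP1R15A, the eIF2α phosphatase subunit GADD34, had 1088 CPM in thapsigargin, against 28.3, 334 and 304 CPM in untreated cells. CHAC1, which degrades glutathione, had 170 CPM in thapsigargin, against 1.31, 24.7 and 13.2 CPM in untreated cells. Both lay above all 3 untreated libraries, and neither was called, with log2 fold changes of 2.29 ± 1.09 and 3.72 ± 1.02. VEGFA, an angiogenic factor, had 362 CPM in thapsigargin, against 13.9, 78.1 and 65.6 CPM in untreated cells (2.79 ± 0.70, adjusted p = 0.104). Of 16 mRNAs with regulatory upstream reading frames, DDIT3 and IFRD1 were called higher (12.5%, against 0.864% of all) and 0 lower. IFRD1, a transcriptional regulator, had 279 CPM in thapsigargin, against 60, 89.9 and 89.9 CPM in untreated cells (1.80 ± 0.32, adjusted p = 0.0192).

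Amino acid synthesis had 5 of 19 genes called higher (26.3%, against 0.864% of all) and 0 lower, with a median of 1.14. ASNS, asparagine synthetase, had 233 CPM in thapsigargin, against 26, 43 and 62.7 CPM in untreated cells (2.41 ± 0.43, adjusted p = 0.0218). GOT1, the cytosolic aspartate aminotransferase, had 150 CPM in thapsigargin, against 28.1, 30.4 and 27.1 CPM in untreated cells (2.39 ± 0.31, adjusted p = 0.00373). PYCR1, an enzyme of proline synthesis, had 351 CPM in thapsigargin, against 58.9, 90.9 and 82.3 CPM in untreated cells (2.18 ± 0.37, adjusted p = 0.0164). PSAT1, of serine synthesis, had 141 CPM in thapsigargin, against 36.8, 33.2 and 39.5 CPM in untreated cells (1.94 ± 0.38, adjusted p = 0.031). The fifth was CTH, which makes cysteine from cystathionine (3.02). PHGDH, the first enzyme of serine synthesis, gave 1.96 ± 0.50 and was not called (adjusted p = 0.0937).

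Of 20 cytosolic tRNA synthetases 6 were called higher (30%, against 0.864% of all) and 0 lower, with a median of 0.93. AARS1 had 697 CPM in thapsigargin, against 151, 149 and 171 CPM in untreated cells (2.15 ± 0.36, adjusted p = 0.0164). CARS1 had 186 CPM in thapsigargin, against 38.4, 44.2 and 60.6 CPM in untreated cells (1.97 ± 0.33, adjusted p = 0.0179). The alanine and cysteine enzymes thus lay well above the untreated range, and GARS1, SARS1, WARS1 and MARS1 were also called, at 1.88, 1.76, 1.71 and 1.51. RARS1, the arginine enzyme, was not called and gave -0.08 ± 0.42. In amino acid transport 1 of 18 genes was called (5.56%, against 0.864% of all). This was SLC6A9, a glycine transporter, with 122 CPM in thapsigargin, against 18.5, 31.9 and 30 CPM in untreated cells (2.19 ± 0.43, adjusted p = 0.0331). SLC7A5, a carrier of large neutral amino acids, had 2996 CPM in thapsigargin, against 265, 4039 and 3906 CPM in untreated cells, so that thapsigargin lay within the untreated range.

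In one-carbon and folate metabolism calls went both ways, 3 of 26 higher (11.5%, against 0.864% of all) and 1 lower (3.85%, against 0.246%). The 3 higher were the mitochondrial enzymes ALDH1L2, MTHFD2 and SHMT2. ALDH1L2 had 76.7 CPM in thapsigargin, against 12.5, 8.03 and 10.1 CPM in untreated cells (2.90 ± 0.33, adjusted p = 0.00268). MTHFD2 had 409 CPM in thapsigargin, against 58.8, 90.1 and 122 CPM in untreated cells (2.18 ± 0.37, adjusted p = 0.0164), and SHMT2 gave 2.03. The gene called lower was MAT2A, which makes S-adenosylmethionine. It had 20.7 CPM in thapsigargin, against 105, 179 and 173 CPM in untreated cells (-2.88 ± 0.55, adjusted p = 0.0292). The list median was -0.33, and it became 0.09 without untreated replicate 1.

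Ribosomal proteins and translation factors had no call. Lists of their size would hold few or no calls at the shares of all protein-coding genes tested, 0.864% higher and 0.246% lower. Of 79 ribosomal proteins 0 were called by edgeR in either direction, and the median was 0.45. By size 10 were higher (12.7%) and 4 lower (5.06%), against 6.51% and 12.5% of all protein-coding genes tested. In thapsigargin 47 of the 79 lay above all 3 untreated libraries (59.5%, against 28.3% of all protein-coding genes tested). Their summed level was 20961 CPM in thapsigargin, against 15554, 11648 and 13459 CPM in untreated cells. Reads of ribosomal protein genes can be shared with pseudogene copies, which makes the level of single genes uncertain. RPL13 had 1137 CPM in thapsigargin, against 495, 370 and 362 CPM in untreated cells (1.48 ± 0.40, adjusted p = 0.112). RPL27 had 295 CPM in thapsigargin, against 120, 71.9 and 117 CPM in untreated cells (1.52 ± 0.47, adjusted p = 0.159). Of 43 translation factors 0 were called, with a median of 0.30, and 24 (55.8%) lay above all 3 untreated libraries. The 31 proteasome subunits also had 0 calls and a median of 0.61. Of these 26 (83.9%) lay above all 3 untreated libraries, and by size 2 were higher (6.45%) and 0 lower.

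Most of the 13430 genes tested belonged to none of the lists, as did 31 of the 33 called lower. DGAT2, which makes triglycerides, had 2.55 CPM in thapsigargin, against 58.3, 47.5 and 50.4 CPM in untreated cells (-4.34 ± 0.63, adjusted p = 0.00778). RGS4, a regulator of G-protein signalling, had 7.96 CPM in thapsigargin, against 151, 80 and 97.3 CPM in untreated cells (-3.78 ± 0.66, adjusted p = 0.0188). SLC39A10, a zinc importer, had 8.86 CPM in thapsigargin, against 140, 55.3 and 54.6 CPM in untreated cells (-3.23 ± 0.67, adjusted p = 0.0409). In these genes the thapsigargin level was below every untreated level. FUCA1, a lysosomal fucosidase, had 18 counts or 2.7 CPM in thapsigargin, against 24, 19.2 and 27.7 CPM in untreated cells (-3.12 ± 0.59, adjusted p = 0.0282). PXYLP1, a phosphatase of proteoglycan synthesis, had 14 CPM in thapsigargin, against 52.4, 148 and 156 CPM in untreated cells (-3.09 ± 0.63, adjusted p = 0.0394).

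The 4 lowest called genes rested on 4 counts or fewer in the thapsigargin library. PCDHB14, a protocadherin, had 2 counts, or 0.3 CPM, in thapsigargin, against 23.5, 13.1 and 16.6 CPM in untreated cells, a level 59.0 times lower (95% counting interval 16.3 to 487). CNR1, a cannabinoid receptor, had 3 counts in thapsigargin, against 16.6, 10.3 and 10.7 CPM in untreated cells, 27.8 times lower (9.52 to 135). MANEA, a Golgi mannosidase, had 4 counts in thapsigargin, against 39.8, 16.2 and 12.1 CPM in untreated cells, 37.8 times lower (14.8 to 139). CYP2U1, a cytochrome P450, had 4 counts in thapsigargin, against 26.9, 11.9 and 11.8 CPM in untreated cells, 28.1 times lower (11 to 103). These exact Poisson intervals cover counting error of the thapsigargin library only. Protocadherin beta genes are similar in sequence, and how reads shared by them were counted is not given in the sources used here.

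Beyond the lists, where most tested genes lie, 73 of the 116 genes called higher had no assigned list. Several of those named here were picked after their values were seen. NFIL3, a basic leucine zipper factor, had 165 CPM in thapsigargin, against 13.7, 8.49 and 7.66 CPM in untreated cells (4.04 ± 0.43, adjusted p = 0.00238). AKNA, a centrosomal and DNA-binding protein, had 106 CPM in thapsigargin, against 6.18, 7.92 and 7.66 CPM in untreated cells (3.87 ± 0.37, adjusted p = 0.00132). CDK2AP2, a cell cycle regulator, had 585 CPM in thapsigargin, against 44.7, 66.1 and 48.7 CPM in untreated cells (3.46 ± 0.35, adjusted p = 0.00172). PLEKHF1, an endosomal protein, had 101 CPM in thapsigargin, against 6.35, 11.6 and 13.8 CPM in untreated cells (3.26 ± 0.41, adjusted p = 0.00311). SYBU and BEX2, which have roles in neurons, had 53.4 and 15.9 CPM in thapsigargin and at most 7.34 and 1.93 CPM in untreated cells. Genes of sugar-nucleotide synthesis outside the glycosylation list were also called. GMPPB (2.62) makes GDP-mannose, GMPPA (1.70) is its regulatory subunit, and NANS (2.43) makes sialic acid. PREB (2.41), a COPII regulator, SERP1 (2.52), which stabilises membrane proteins at the translocon, and STX5 (2.05), a Golgi SNARE, act in the secretory pathway. BHLHA15, the secretory-cell factor MIST1, had 32 counts in thapsigargin and 0 in each untreated library, and was at least 14-fold higher on a floor of 3 counts per untreated library.

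Single genes of other lists were called in part. CDC6, a licensing factor of DNA replication, had 383 CPM in thapsigargin, against 33.7, 52.8 and 47.1 CPM in untreated cells (3.11 ± 0.45, adjusted p = 0.00809). It was the 1 call among 31 cell cycle genes (3.23%, against 0.864% of all). WIPI1, which acts early in autophagy, had 231 CPM in thapsigargin, against 44.4, 29.1 and 23.2 CPM in untreated cells (2.84 ± 0.34, adjusted p = 0.00272). It was the 1 call among 24 autophagy genes (4.17%, against 0.864% of all). Of 24 cytosolic heat shock chaperones 1 was called higher (4.17%, against 0.864% of all) and 1 lower (4.17%, against 0.246%). Their median was 0.18. BAG3, a co-chaperone, had 154 CPM in thapsigargin, against 56.3, 52.7 and 47.2 CPM in untreated cells (1.57 ± 0.31, adjusted p = 0.0313). HSPA8, the constitutive cytosolic Hsp70, had 81.4 CPM in thapsigargin, against 382, 372 and 399 CPM in untreated cells (-2.24 ± 0.47, adjusted p = 0.0442). The lists of cholesterol and fatty acid synthesis, apoptosis regulators, NRF2 antioxidant genes, glycolysis, nuclear-encoded respiratory chain and mitochondrially encoded proteins had 0 calls, with medians of -0.01, -0.18, 0.07, 0.43, 0.14 and -0.20.

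Reported substrates of IRE1-dependent decay had 0 of 13 genes called and a median of -0.58. By size 1 of them was higher (7.69%) and 5 lower (38.5%), against 6.51% and 12.5% of all protein-coding genes tested. CD59, a complement inhibitor, had 178 CPM in thapsigargin, against 1034, 774 and 783 CPM in untreated cells (-2.27 ± 0.52, adjusted p = 0.0636). TGOLN2, a trans-Golgi protein, had 138 CPM in thapsigargin, against 462, 477 and 548 CPM in untreated cells (-1.85 ± 0.41, adjusted p = 0.0557). Extracellular matrix and integrin genes had 0 of 31 called and a median of -0.72. Below all 3 untreated libraries lay 18 of them (58.1%), against 34.4% of all protein-coding genes tested. By size 9 were lower (29.0%) and 1 higher (3.23%), against 12.5% and 6.51% of all. VCAN, a matrix proteoglycan, had 168 CPM in thapsigargin, against 882, 281 and 488 CPM in untreated cells (-1.71 ± 0.63, adjusted p = 0.236).

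The glial label was checked against 14 markers, of which 13 were tested and 0 called. Vimentin (VIM) had 1126 CPM in thapsigargin, against 792, 748 and 1078 CPM in untreated cells, and CD44 had 567 CPM in thapsigargin, against 505, 854 and 955 CPM. GFAP, the defining filament of astrocytes, had 0.901 CPM in thapsigargin, against 0.793, 1.61 and 2.59 CPM in untreated cells, so it was near 0 throughout. ALDH1L1 and SOX9 had 0 counts in thapsigargin and at most 1.86 and 0.574 CPM in untreated cells. S100B, a calcium-binding glial protein, had 37.4 CPM in thapsigargin, against 481, 176 and 205 CPM in untreated cells (-2.94 ± 0.65, adjusted p = 0.0556). SOX2, a neural progenitor factor, had 8.41 CPM in thapsigargin, against 30.4, 29.1 and 41.2 CPM in untreated cells (-2.0 ± 0.58, adjusted p = 0.134). The median of the 13 was -2.0, with GFAP, ALDH1L1 and SOX9, whose levels were near 0, among them. By size 5 of them were lower (38.5%) and 0 higher, against 12.5% and 6.51% of all protein-coding genes tested. Summed markers of blood cells reached 0.45 CPM in thapsigargin and 0.324 to 1.38 CPM in untreated cells, and epithelial markers 35.1 and 25.9 to 33.0 CPM. Neuron markers summed to 222 CPM in thapsigargin and 150 to 318 CPM in untreated cells, and none of these lists had a call.

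The footprint changes were compared with those of RNA, which came from separate libraries of 145 M counts in thapsigargin and 138, 122 and 101 M counts in untreated cells. In RNA-Seq 449 of 18295 protein-coding genes were called higher (2.45%) and 91 lower (0.497%). Of the 13430 protein-coding genes tested in footprints 3.28% were called higher in RNA and 0.611% lower. Their median RNA log2 fold change was 0.09. Of the 116 genes with higher footprints 115 had a positive RNA log2 fold change and 91 were called higher in RNA. Of the 33 with lower footprints 32 had a negative one and 7 were called lower in RNA. The exceptions were NOC4L, with 1.61 in footprints and -0.35 in RNA, and ASPM, with -1.71 and 0.15. RNA-Seq untreated replicate 1 stood apart with counts in 53489 genes, against 40331 and 38559 in replicates 2 and 3, and the RNA calls numbered 1644 without it and 147 and 202 without replicates 2 and 3. Of the 116 genes 58 and 59 were still called higher in RNA without RNA-Seq replicate 2 and 3, and of the 33 there were 2 called lower in each case, against 23 without replicate 1. Scaling by library size alone moved the median RNA log2 fold change of protein-coding genes from -0.25 to -0.59 and gave 248 higher and 102 lower calls.

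**Figure D3:**
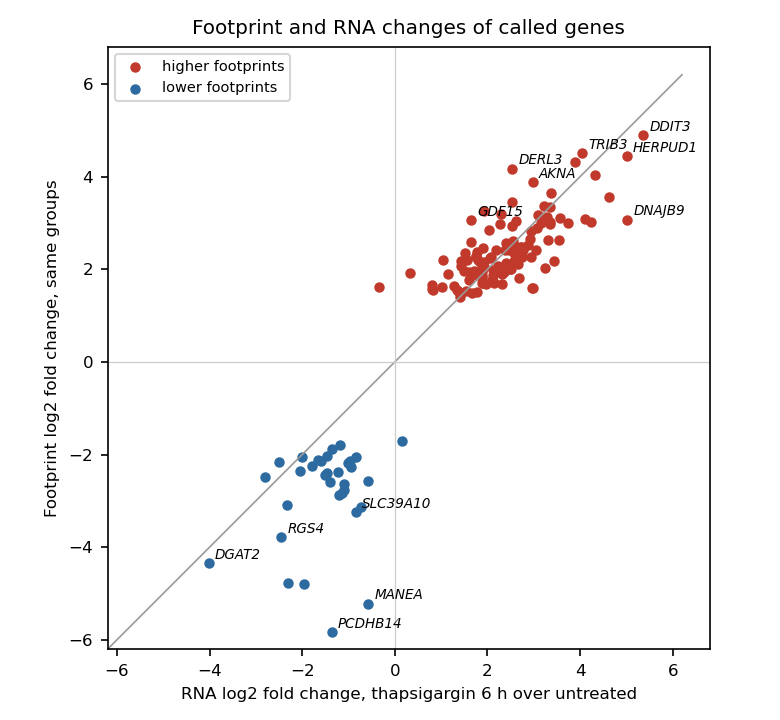
Log2 fold changes of footprints (y axis) against RNA (x axis), thapsigargin 6 h over untreated, for genes called in footprints, with equal change on the diagonal. The genes were chosen by their footprint change; BHLHA15, with 0 untreated footprint counts, is left out. Higher genes lie around the diagonal, and lower genes such as MANEA and PCDHB14 lie below it.

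HERPUD1, DDIT3, HSPA5 and DNAJB9 were called in RNA too, whereas DDIT4, GDF15, SYVN1 and PSAT1 were called in footprints only. HERPUD1 RNA had a log2 fold change of 5.01 ± 0.29 (adjusted p = 7.27e-05), against 4.45 in footprints. DDIT3 RNA gave 5.36 ± 0.58 (adjusted p = 0.00256), and HSPA5 RNA gave 3.08 ± 0.60 (adjusted p = 0.033). DNAJB9 had 5.02 ± 0.28 in RNA (adjusted p = 7.27e-05) and 3.07 in footprints. Translational efficiency, the footprint change beyond the RNA change, was tested in 1 model over both assays. It gave 0 calls in either direction among 13408 protein-coding genes (0%), a smallest adjusted p of 0.12 and 1346 genes with an unadjusted p under 0.05 (434 higher and 912 lower). The intervals were wide: the difference was -1.75 ± 0.66 for DNAJB9, -1.21 ± 0.44 for EIF2AK3, -0.16 ± 0.54 for ATF4, 1.58 ± 0.67 for GDF15 and 1.92 ± 0.52 for RPL13. As a description, the genes called higher in footprints had a median difference of 0.09 and those called lower -1.03, against -0.17 over all genes; these values contain the footprints by which the genes were chosen.

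Tunicamycin, which blocks N-linked glycosylation, also stresses the ER. The thapsigargin library was set directly against the 3 tunicamycin libraries of 6 h. Of 13430 protein-coding genes 2 were called higher (0.0149%), 0 lower (0%), and 1024 had an unadjusted p under 0.05. RGS2, a regulator of G-protein signalling, had 62.1 CPM in thapsigargin, against 4.74, 6.58 and 6.47 CPM in tunicamycin and 7.93, 11 and 15.9 CPM in untreated cells. The difference from tunicamycin was 3.38 ± 0.42 on the log2 scale (adjusted p = 0.0284). MAP1A, a microtubule-binding protein, had 124 CPM in thapsigargin, against 14.8, 19.0 and 21.5 CPM in tunicamycin and 17.6, 25.4 and 34.5 CPM in untreated cells (2.74 ± 0.37, adjusted p = 0.0361). Both genes lay above every tunicamycin and untreated library, and neither stayed called when any 1 tunicamycin library was left out (adjusted p 0.165 to 0.208).

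**Figure D4:**
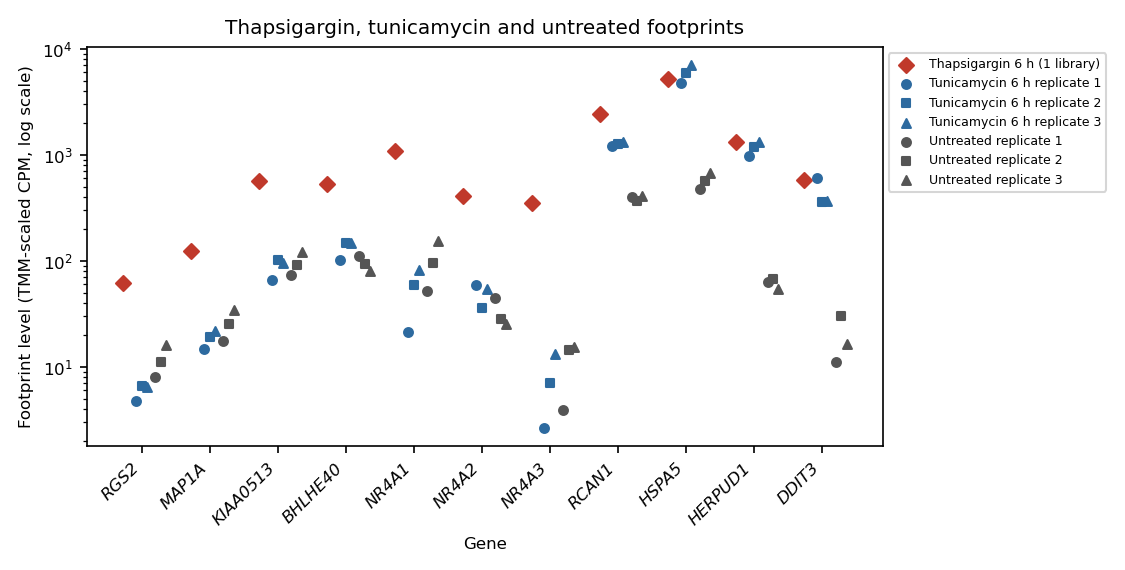
Footprint levels (TMM-scaled CPM, log scale) of 11 genes in thapsigargin at 6 h (red diamonds), tunicamycin at 6 h (blue) and untreated cells (grey), with a symbol for each replicate. For the genes from RGS2 to RCAN1 the red diamond lies above all blue and grey symbols, and for HSPA5 it lies among the blue ones. Only RGS2 and MAP1A were called against tunicamycin. KIAA0513, BHLHE40, NR4A1, NR4A3 and RCAN1 were picked after their values were seen.

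No difference between the drugs was called for the leading ER stress genes. HSPA5 had 5162 CPM in thapsigargin, against 4726, 5986 and 7033 CPM in tunicamycin, a difference of -0.20 ± 0.49. HERPUD1 had 1332 CPM in thapsigargin, against 985, 1185 and 1309 CPM in tunicamycin (0.20 ± 0.39). DDIT3 had 574 CPM in thapsigargin, against 599, 362 and 363 CPM in tunicamycin (0.38 ± 0.63). The thapsigargin level of HSPA5 and DDIT3 lay within the tunicamycin range, and that of HERPUD1 just above it.

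Immediate early genes of the NR4A family, nuclear receptors without a known ligand, were set beside the 3 tunicamycin libraries. NR4A2, an orphan nuclear receptor, had 411 CPM in thapsigargin, against 58.5, 35.7 and 54.7 CPM in tunicamycin and 44.8, 28.5 and 25.5 CPM in untreated cells. It was called against untreated cells (3.64 ± 0.52, adjusted p = 0.00717), as the 1 call among 33 immediate early genes (3.03%, against 0.864% of all). Against tunicamycin it missed the threshold (3.05 ± 0.52, adjusted p = 0.0902). NR4A1 had 1080 CPM in thapsigargin, against 21.0, 58.5 and 81.5 CPM in tunicamycin and 51.4, 95.1 and 153 CPM in untreated cells. NR4A3 had 349 CPM in thapsigargin, against 2.65, 6.94 and 13.3 CPM in tunicamycin and 3.86, 14.3 and 15.3 CPM in untreated cells. Their thapsigargin levels lay above every other library named, but with errors of 1.42 and 1.62 on the log2 scale against tunicamycin neither was called. RCAN1, an inhibitor of the calcium-dependent phosphatase calcineurin, picked after its values were seen, had 2425 CPM in thapsigargin, against 1209, 1266 and 1326 CPM in tunicamycin and 401, 370 and 406 CPM in untreated cells. It was called against untreated cells (2.63 ± 0.43, adjusted p = 0.0155) and not against tunicamycin (0.94 ± 0.45). EGR1 and CCN2 had 94.1 and 32.4 CPM in thapsigargin, below the lowest untreated levels of 167 and 43.9 CPM, and were not called.

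Among inflammatory genes 0 of 23 were called in footprints. IL6 had 38 CPM in thapsigargin, against 0, 1.03 and 1.51 CPM in untreated cells (5.57 ± 1.21, adjusted p = 0.0556), and its RNA was called (5.73 ± 0.90, adjusted p = 0.0141). PTGS2, which encodes cyclooxygenase 2, had 296 CPM in thapsigargin, against 37.7, 6.31 and 10.5 CPM in untreated cells (4.01 ± 0.86, adjusted p = 0.0775), and its RNA was called (5.09 ± 0.82, adjusted p = 0.0154). CXCL8, a chemokine, had 219 CPM in thapsigargin, against 11.7, 637 and 781 CPM in untreated cells, so that the untreated range enclosed it.

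The times of thapsigargin were set side by side, with 1 library at 2 h and 1 at 6 h. Between them 0 protein-coding genes were called in either direction (0%), and 683 had an unadjusted p under 0.05. HSPA5 had 475, 563 and 675 CPM at 0 h, 1543 CPM at 2 h and 5162 CPM at 6 h. HERPUD1 had 62.7, 66.7 and 53.9 CPM at 0 h, 738 CPM at 2 h and 1332 CPM at 6 h. ALDH1L2 had 12.5, 8.03 and 10.1 CPM at 0 h, 7.57 CPM at 2 h and 76.7 CPM at 6 h. HERPUD1 thus lay above the untreated range at both times, whereas ALDH1L2 lay above it at 6 h and just below it at 2 h. WIPI1 had 44.4, 29.1 and 23.2 CPM at 0 h, 24.6 CPM at 2 h and 231 CPM at 6 h. NR4A2 had 44.8, 28.5 and 25.5 CPM at 0 h, 966 CPM at 2 h and 411 CPM at 6 h. RGS2 had 7.93, 11 and 15.9 CPM at 0 h, 168 CPM at 2 h and 62.1 CPM at 6 h. The 2 h level of NR4A2 and RGS2 was the higher of the 2 times, with differences of -1.23 ± 0.71 and -1.44 ± 0.57 (6 h minus 2 h, not called).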

How the data were processed

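The authors deposited raw counts for each gene entry in every library. The submitters' processing notes name the tools STAR 2.5.4b, HTSeq and DESeq2 and the build GRCh38. Annotation and strandedness of the counting are not stated there, so antisense and overlapping genes cannot be told apart. Symbols came from the reference tables; entries were protein-coding by a RefSeq match on symbol (40050 entries of all types) or synonym (338).

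edgeR 4.0.16 in R 4.3.3 kept genes by filterByExpr (minimum count 10), scaled by TMM and fitted glmQLFit (robust) over all 11 libraries of an assay in 5 groups, or all 22 for translational efficiency. Adjusted p-values are Benjamini-Hochberg over all 19411, 41130 and 18500 genes of footprints, RNA and both. The biological coefficient of variation of footprints was 0.546. DESeq2 1.42.0 was an alternative. No pair of untreated libraries was identical (chi-square per degree of freedom 31.6 to 219). The fits were tested on simulated counts. Errors are SE of log2 fold changes.

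Named genes are the 14 highest and 10 lowest called with at least 50 counts and levels outside the untreated range, the 2 smallest p of each list, the called genes of the other contrasts, and 11 fixed genes; others were picked after their values were seen. Members and the 34 lists (847 of 848 entries matched, SOD2 was not) were chosen with earlier results of these data known.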

Additional observations from a re-analysis of the deposited data

Results flagged for a closer look

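In 2 genes the footprint change differed between the drugs by a direct test of thapsigargin against tunicamycin at 6 h. RGS2 was higher in thapsigargin by 3.38 ± 0.42 on the log2 scale and MAP1A by 2.74 ± 0.37, above 3 of 3 tunicamycin libraries in both cases. Against untreated cells the log2 fold changes were 2.43 in thapsigargin and -0.96 in tunicamycin for RGS2, and 2.26 and -0.48 for MAP1A; both comparisons share the untreated libraries. The thapsigargin value comes from 1 library, and its part in the difference was not tested.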

How the results depend on the processing

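Footprint calls numbered 149 (116 higher, 33 lower). DESeq2 called 814 (409 higher, 405 lower), no filter on low counts 540 (275 and 265), the compared groups alone 0, and untreated replicate 1 alone, added after seeing the data, 465 (234 and 231, 96 of them shared with the 149). Without 1 untreated replicate the calls were 51 to 246, and 50 to 144 of the 149 were among them. The other scalings, filter and protein-coding-only fit called 167 to 212. The size rule took 2556 genes and 4591 against untreated replicate 1 alone. For thapsigargin against tunicamycin the 2 calls became 106 with DESeq2 (43 higher, 63 lower), 1 with a filter in at least 3 libraries, 0 without any 1 tunicamycin replicate and 0 against tunicamycin replicate 1 alone, added after seeing the data. RNA calls were 540, against 350 by library size alone, 2579 with DESeq2 (1355 higher, 1224 lower) and 147 to 1644 without 1 untreated replicate. Translational efficiency had 0 calls under every alternative run, DESeq2 not among them. The median of the one-carbon list was -0.38 to 0.0923 when 1 untreated replicate was left out. Among lists with at least 5 genes tested, 12 medians moved without untreated replicate 1 and 1 reversed sign. Without replicate 2 there were 3 that moved and without replicate 3 there were 6, with 0 reversed. Against untreated replicate 1 alone 20 medians moved and 0 reversed. Moved means by more than the SD of the list medians of single untreated libraries. Of the 95 genes taken by the naming rule, none changed sign where it was called under either setting, and the uncalled CLDN4, MT-CO2 and MT-ND2 changed sign under at least 1 alternative. No paired analysis was possible because the thapsigargin footprint labels carry no replicate number; this holds for footprints and translational efficiency. For RNA a replicate block over all 11 libraries, added after seeing the data, called 919 genes (597 higher, 322 lower). By the labels the RNA libraries share only a number. Deviations from the group means correlated at 0.0423 to 0.763 in 9 same-numbered pairs, over 0.1 in 6 of them, and each library correlated best with its own number in each other group, a hint from the data and not the design. With 1 thapsigargin library of 6.38 M counts, levels near 0.450 CPM (3 counts) are at the limit of detection.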
